A study of Homo sapiens with 12 samples.

Results

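To ask where cohesin comes to lie relative to CTCF when it is no longer released from DNA, the SMC1 and CTCF peaks of ΔWAPL cells were set against each other. The 2 lists held 79750 peaks, of the 267921 peaks in the 12 lists of the series: 33952 for SMC1, which belongs to the ring of cohesin, and 45798 for CTCF, whose zinc fingers recognise a long DNA motif with a direction. The peaks were chosen by genotype and antibody alone, and every count refers to the lists as deposited. Their numbers of SMC1 peaks differ from those in the publication, which reports more for ΔWAPL cells. Counts and shares here are therefore not those of the publication's peaks. Each peak has an interval and a summit, which is the base where the pileup of reads is highest.

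The ΔWAPL cells were 1 clone (WaplKO_3.3) of HAP1, a human leukaemia line with nearly a single set of chromosomes, in which a blasticidin cassette had been inserted into WAPL with CRISPR. They were compared, where a difference was to be shown, with wild-type HAP1 cells. The other genotypes were ΔSCC4 cells, with a puromycin cassette in SCC4 (MAU2), and ΔWAPL/ΔSCC4 cells, made from ΔWAPL cells. No treatment is named for any genotype, and an IgG precipitation was the control of each. There was 1 library of each antibody in each genotype, so that nothing could be tested between genotypes. Every interval given here is a 95% interval that covers counting error only and leaves out the spread between clones, cultures and precipitations. Since ΔWAPL was 1 clone, WAPL loss cannot be told apart from other properties of that clone, and peak lists do not show whether WAPL protein was absent.

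Cohesin holds DNA inside its ring and enlarges chromatin loops. WAPL opens the ring and takes cohesin off DNA, and the SCC2/SCC4 complex loads it. CTCF halts cohesin at loop anchors, and most loops of normal cells run between CTCF sites whose motifs face each other. Such a pair is called convergent. In a divergent pair the motifs face away from each other, and in a tandem pair both point the same way.

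The motif learned from the strongest wild-type CTCF peaks is shown first, because all sides and orientations below are read along it. It is written on the strand that carries the run of G, which is called the motif strand here, and the end on the right is its 3′ side. Motif matches in ΔWAPL CTCF peaks with an SMC1 peak had a consensus that differed at 2 of 19 positions from that of matches without one. Capitals mark those positions.
CTCF motif learned: tggccaccagggggcgctg
ΔWAPL matches with SMC1: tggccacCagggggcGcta
ΔWAPL matches without SMC1: tggccacTagggggcActa

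Sites from the top 3 of their class by −log10 q, the negative logarithm of the peak caller's adjusted p-value, show what occupied sites look like. All coordinates are on hg19, 1-based. The first lies in an intron of LINGO1, a neuronal membrane protein, at chr15:77925985-77926043 on the plus strand. The second lies between genes, 3634 bp from a start of LTF, which encodes the iron-binding protein lactoferrin, at chr3:46530308-46530366 on the plus strand. The third is in an intron of PSMD6, a regulatory subunit of the proteasome, at chr3:64009253-64009311 on the minus strand. The fourth lies between genes, 147 bp from a start of MAP2, a microtubule-binding protein of neurons, at chr2:210288583-210288641 on the minus strand. Each sequence is read along the motif strand, with the 19 bases of the motif match in capitals and 20 bases on either side. The match in PSMD6 was weak. Its motif score, which rises with likeness to the learned motif, was 5.01, so its strand is less certain. The score was 23.3 in LINGO1, 13.2 beside LTF and 12.3 beside MAP2.
LINGO1 intron, SMC1 and CTCF: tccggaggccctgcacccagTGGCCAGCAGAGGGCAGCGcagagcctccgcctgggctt
Upstream of LTF, SMC1 and CTCF: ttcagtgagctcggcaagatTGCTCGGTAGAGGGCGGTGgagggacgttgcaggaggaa
PSMD6 intron, SMC1 and CTCF: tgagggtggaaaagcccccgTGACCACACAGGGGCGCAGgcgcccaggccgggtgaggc
Beside MAP2, SMC1 and CTCF: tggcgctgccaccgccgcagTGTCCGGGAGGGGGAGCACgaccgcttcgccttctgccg

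The 3 strongest CTCF peaks with a motif match but no SMC1 peak in ΔWAPL cells are shown in the same way for contrast. They lie in introns of SAMMSON, a long non-coding RNA gene, at chr3:70139644-70139702 on the plus strand, of TDRD3, which encodes a tudor-domain protein, at chr13:61005403-61005461 on the minus strand, and of IL21-AS1, a non-coding RNA gene antisense to IL21, at chr4:123573701-123573759 on the minus strand.
SAMMSON intron, CTCF only: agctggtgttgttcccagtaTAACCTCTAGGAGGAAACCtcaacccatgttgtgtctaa
TDRD3 intron, CTCF only: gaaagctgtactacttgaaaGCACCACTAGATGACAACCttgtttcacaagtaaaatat
IL21-AS1 intron, CTCF only: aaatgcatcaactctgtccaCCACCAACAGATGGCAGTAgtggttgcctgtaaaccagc

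Average coverage was estimated for each library. It was taken from the lowest background solved for any peak of a list, over the shortest interval of that list. The estimate was 7.66 reads per kb for ΔWAPL SMC1 and 8.41 for ΔWAPL CTCF, against 8.13 and 6.53 in wild-type cells. Over all 12 lists it ranged from 5.43 to 9.05. The median peak rested on 23 reads at the summit for SMC1 and 39 for CTCF in ΔWAPL cells, and on 20 and 37 in wild-type cells. The weakest peaks had a −log10 q of 1.42 for SMC1 and 1.52 for CTCF. In ΔWAPL cells, 361 SMC1 and 412 CTCF peaks lay at an IgG peak of any genotype.

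Most SMC1 peaks of ΔWAPL cells lay at CTCF, and over the lists as deposited most CTCF peaks had SMC1. Of the SMC1 peaks, 81.6% overlapped a CTCF peak by at least 1 bp (95% Wilson interval 81.2 to 82.0, 27701 of 33952). Conversely, 60.8% of CTCF peaks had an SMC1 peak (60.3 to 61.2, 27841 of 45798). SMC1 of wild-type cells lay at CTCF more often (94.5%), while 40.7% of their CTCF peaks carried it. These shares moved with the length of the lists. With equal numbers of the strongest peaks, 97.6% of SMC1 peaks lay at CTCF in ΔWAPL and 98.2% in wild-type cells, and 33.4% and 33.3% of CTCF peaks had SMC1, so the differences between the genotypes were nearly gone. With peaks of a −log10 q of at least 10 only, 48.7% of ΔWAPL CTCF peaks had SMC1. The pairing was almost always of 1 with 1. An SMC1 peak over exactly 1 CTCF peak, which had no other SMC1 peak, made up 99.2% of the 27701, although 162 SMC1 peaks spanned 2 CTCF peaks and 3 spanned 3. In wild-type cells 19 spanned 2 and none spanned 3. The SMC1 peak over the most CTCF peaks that lay clear of IgG peaks was in a coding exon of KLHL31, a kelch-family gene, at chr6:53516090-53517055. It had a fold enrichment (pileup at the summit over local background) of 8.23 in ΔWAPL, and no SMC1 peak was called there in wild-type cells. Few pairs stood at the edge of the overlap rule. The overlap was under 50 bp for 47 SMC1 peaks, of median fold enrichment 3.95, and 40 SMC1 peaks missed a CTCF interval by under 50 bp, with a median of 4.15.

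The summits of both proteins nearly coincided. The median distance between them was 27 bp (95% interval 27 to 28, 27701 pairs), which is short beside the median SMC1 interval of 361 bp. They were within 10 bp in 21.6% of pairs, within 50 bp in 75.6% and within 200 bp in 98.8%. Without regard to the motif, the SMC1 summit fell on either side of the CTCF summit in nearly equal shares, with 48.8% of them toward the right on the genome's plus strand.

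Along the motif strand the pairs were not symmetric. The SMC1 summit lay 3′ of the CTCF summit in 61.6% of pairs with a motif match and summits apart (61.0 to 62.2, 15183 of 24634), with a median of 11 bp (10 to 11, 24896 pairs). The shift turned with the motif. It was 9 bp toward the right where the motif was on the plus strand (12609 pairs) and -12 bp, toward the left, where it was on the minus strand (12287 pairs). Single sites scattered widely around this median. The middle 50% of pairs ran from -14 to 37 bp, and the sites printed above lay on either side. The SMC1 summit was at -6 bp from the CTCF summit in LINGO1, at 6 bp beside LTF, at -2 bp in PSMD6 and at 7 bp beside MAP2. The sites of the same top 3 that were not printed lay farther off, at 20 bp (chromosome 15) and -33 bp (chromosome 10).

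Both summits contributed to the offset between them. Measured from the centre of the motif, the CTCF summit lay at a median of -10 bp (-10 to -9), so on its 5′ side. The SMC1 summit lay at 4 bp (3 to 4), on the 3′ side in 53.9% of pairs. The asymmetry was thus smaller when SMC1 was measured from the motif than from the CTCF summit. At CTCF sites with a match but no SMC1, the CTCF summit was at -6 bp (-6 to -5, 11807 sites). The CTCF distances have a bound set by the search, which took the motif within 50 bp of the CTCF summit. The SMC1 interval reached farther on the 3′ side too. From the motif centre it extended a median of 189 bp 3′ and 177 bp 5′, whereas the CTCF interval reached farther to the 5′ side (a median difference of -13 bp between the 3′ and 5′ reach).

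**Figure D1:**
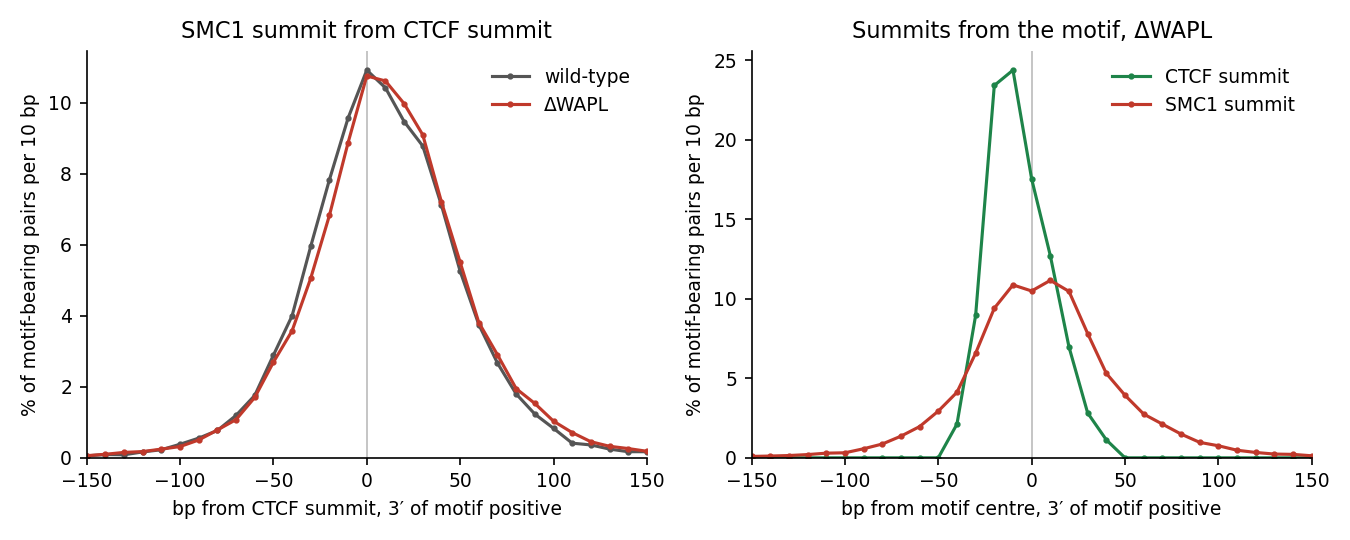
Distance in bp along the motif strand, 3′ positive, as a share of motif-bearing SMC1 and CTCF pairs per 10 bp, of the SMC1 summit from the CTCF summit in wild-type and ΔWAPL cells (left) and of both summits from the motif centre in ΔWAPL cells (right). The ΔWAPL curve lies to the right of wild-type (medians 11 and 8 bp), and the CTCF summits peak 5′ of the motif centre while the SMC1 summits spread over both sides of it.

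The 3′ position was more frequent at strong sites. From the weakest to the strongest quintile, 1 of 5 groups of equal size, of pairs by SMC1 fold enrichment, the 3′ share was 58.5%, 59.4%, 62.1%, 63.7% and 64.5%. By CTCF fold enrichment it went from 57.1% (55.7 to 58.4) to 64.8% (63.5 to 66.1). The median offset did not rise with SMC1 strength, at 11, 10, 11, 11 and 10 bp. The scatter narrowed, with the middle 50% from -25.5 to 50.5 bp in the weakest SMC1 quintile and -8 to 29 bp in the strongest. By CTCF strength the median was 8 bp in the weakest and 11 bp in the strongest quintile. The 3′ share was 62.3% away from start sites and 59.5% within 1 kb of one. Compared with wild-type cells, the share of 61.6% was higher by 3.25 percentage points (95% Newcombe interval 2.28 to 4.22). With equal numbers of the strongest peaks of each list, the difference was 5.18 points. Measured from the motif centre in place of the CTCF summit, it was 2.69 points (1.70 to 3.69). The 3′ share was 56.0% (ΔSCC4), the lowest of the 4 libraries, and 58.1% (ΔWAPL/ΔSCC4, 57.5 to 58.8). The latter was near the 58.4% of wild-type cells (57.6 to 59.1). With equal numbers it was 59.9% in ΔWAPL/ΔSCC4 and 58.9% in wild-type cells.

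The same CTCF sites could be followed from 1 genotype to the other. At 15130 motif-bearing sites with SMC1 in both lists, the median SMC1 position from the CTCF summit was 11 bp in ΔWAPL and 8 bp in wild-type cells, and the change within a site had a median of 4 bp (3 to 5). The spread of that change was far larger, with the middle 50% of sites between -29 and 37 bp. From the motif centre, the median SMC1 position at these sites was 3.5 bp in ΔWAPL and 1 bp in wild-type cells. The change within a site was then smaller, with a median of 2 bp (1 to 3). The SMC1 intervals were longer on both sides of the motif in ΔWAPL cells. The 3′ reach went from a median of 151 to 206 bp, a median change within a site of 57 bp (56 to 58), and the 5′ reach from 147 to 191 bp, with a change of 47 bp (45 to 48). The 3′ reach was longer in ΔWAPL at 82.4% of sites. The shortest interval of a list, taken here as an estimate of the caller's fragment length, was 208 bp for ΔWAPL SMC1 and 194 bp for wild-type SMC1. The part of fragment length in these lengths was not tested. CTCF sites whose SMC1 peak was in the ΔWAPL list only had a 3′ share of 59.6% (58.6 to 60.7), and sites with SMC1 in both lists 63.1% (62.4 to 63.9).

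Whether a CTCF site carried cohesin went with the strength of the CTCF peak. In the weakest quintile of ΔWAPL CTCF peaks by fold enrichment, 20.4% had an SMC1 peak (19.6 to 21.2). The following quintiles had one in 38.4%, 66.0% and 84.7%, and the strongest in 94.4% (93.9 to 94.8). The ratio of the strongest to the weakest quintile was 4.62 (4.44 to 4.82). This ratio was lower than in the other libraries, where it was 14.6 (wild-type), 13.5 (ΔSCC4) and 10.1 (ΔWAPL/ΔSCC4). As a ratio, the difference from wild-type cells was largest at the weak end. In percentage points it was largest in the middle quintile, with 66.0% in ΔWAPL and 37.2% in wild-type cells, against 20.4% and 5.74% in the weakest. In the weakest decile of CTCF peaks, 18.9% carried SMC1 in ΔWAPL, against 5.25% (wild-type), 5.56% (ΔSCC4) and 7.65% (ΔWAPL/ΔSCC4). With equal numbers of the strongest peaks of each list the ratio in ΔWAPL was 10.1, and that of wild-type was 15.8. At ΔWAPL CTCF peaks with SMC1, the log2 fold enrichments of both proteins had a Pearson correlation of 0.54 over 27841 CTCF peaks, which share their libraries, and 0.47 in wild-type cells.

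**Figure D2:**
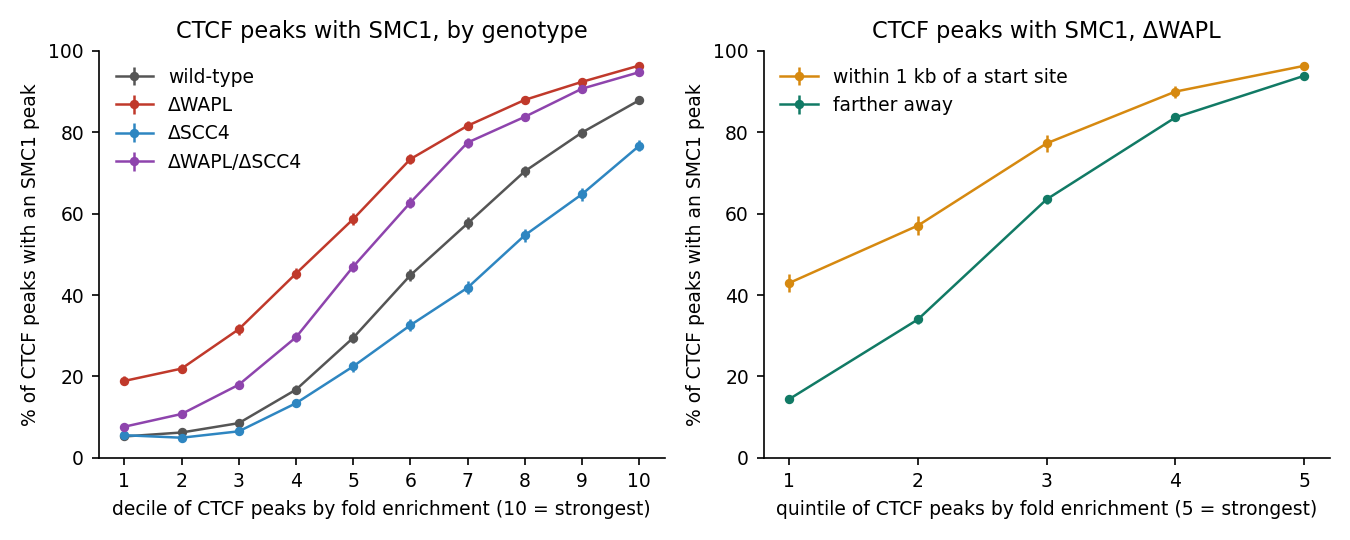
Share of CTCF peaks with an SMC1 peak by decile of CTCF fold enrichment in the 4 genotypes (left) and by quintile in ΔWAPL cells for peaks within 1 kb of a start site and farther away (right), with bars for the 95% Wilson interval. The ΔWAPL curve is the highest in each decile, from 18.9% to 96.4%, and its weak CTCF peaks carry SMC1 more often near start sites (43.0%) than away from them (14.4%).

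The motif itself also separated the sites. Of the ΔWAPL CTCF peaks with a motif match, 67.9% had SMC1 (67.4 to 68.4), against 31.7% without a match (30.7 to 32.7). Peaks without a match were weaker, with a median CTCF fold enrichment of 6.75 against 12.8. Within quintiles of equal CTCF strength the difference was 13.8 percentage points on average, and it had the same direction in 5 of 5 quintiles. Among matches, occupancy went with the motif score, from 48.6% in the lowest quintile to 88.6% in the highest. The consensus base was more frequent with SMC1 than without at 16 of 19 positions. The largest difference was at position 15, counted from the 5′ end, where 76.7% of matches with SMC1 and 65.8% of those without had the consensus base. At position 10 both had it in 99.0%. The strand of the motif made little difference, with 68.2% of plus-strand and 67.6% of minus-strand matches occupied.

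Base composition moved with occupancy as well. Over the 50 bp to the left and right of the CTCF summit, the share of peaks with SMC1 went from 36.7% in the quintile lowest in G and C to 84.4% in the highest, while the median CTCF fold enrichment of those quintiles was 10.3 and 13.2. In wild-type cells the same quintiles had 21.0% and 56.9%. The part of base composition in the recovery of peaks was not tested. By chromosome, occupancy ranged from 53.7% on chromosome 13 to 67.8% on chromosome 17.

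CTCF sites near promoters carried cohesin more often, above all the weak ones. Within 1 kb of a start site 72.4% of ΔWAPL CTCF peaks had SMC1 (71.5 to 73.3), and 58.0% farther away (57.5 to 58.5). In the weakest quintile the shares were 43.0% and 14.4%, and in the strongest 96.3% and 93.8%. Averaged over the quintiles, the difference was 14.8 points in ΔWAPL, against 5.50 (wild-type), 3.39 (ΔSCC4) and 3.88 (ΔWAPL/ΔSCC4).

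The sites that gained an SMC1 peak could be read against the wild-type list. Of 17405 ΔWAPL CTCF peaks matched to a wild-type CTCF peak with SMC1, 95.6% had SMC1 in ΔWAPL. Of 22006 matched to a wild-type CTCF peak without SMC1, 44.5% had it (43.8 to 45.2). This share went from 18.4% in the weakest quintile of ΔWAPL CTCF peaks to 77.7% in the strongest. Of the 6387 CTCF peaks with no wild-type partner, 22.1% had SMC1. The SMC1 peaks at CTCF sites without wild-type SMC1 were weaker, with a median fold enrichment of 5.65, than those at sites occupied in both, with 8.37.

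Single strong sites kept their CTCF while SMC1 differed. At the LINGO1 site SMC1 had a fold enrichment of 16.8 (ΔWAPL), 11.6 (wild-type), 10.99 (ΔSCC4) and 15.2 (ΔWAPL/ΔSCC4), and CTCF one of 22.3, 22.1, 21.99 and 19.8. At the PSMD6 site the SMC1 values were 20.7, 13.5, 9.63 and 14.1 in the same order. SMC1 was highest in ΔWAPL and lowest in ΔSCC4 cells at both, but sites picked for a strong ΔWAPL peak favour a high ΔWAPL value. The CTCF-only sites were picked for a high ΔWAPL CTCF −log10 q, so their strength in CTCF is not a result. As a class, ΔWAPL CTCF peaks without SMC1 were weaker, with a median CTCF fold enrichment of 7.15 against 14.5 with SMC1. In ΔWAPL cells the CTCF fold enrichment was 25.4 in SAMMSON, 24.8 in TDRD3 and 27.4 in IL21-AS1, and no SMC1 peak was called there in ΔWAPL or wild-type cells. At the IL21-AS1 site the ΔWAPL/ΔSCC4 list had one, with a fold enrichment of 5.11. The match in SAMMSON was weak, with a motif score of 5.55, against 10.7 in TDRD3 and 15.5 in IL21-AS1. Some strong SMC1 peaks sat at CTCF without a motif match. The first by −log10 q were in an intron of FSIP2, a gene of the sperm tail, and in an intron of ABCC12, an ABC transporter gene, with SMC1 fold enrichments of 17.6 and 15.4 and CTCF ones of 24.3 and 20.6. In FSIP2 SMC1 was higher in wild-type cells, at 19.1, and in ΔWAPL/ΔSCC4 cells, at 18.9, than in ΔWAPL cells.

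The orientation of neighbouring sites was then read from all ΔWAPL CTCF peaks that had both a motif match and SMC1, in their order along the chromosome. Of 24963 neighbouring pairs, 24.9% were convergent (24.4 to 25.5), 24.9% divergent and 50.2% tandem (49.6 to 50.8). Along a line, convergent and divergent pairs must alternate. Their numbers are therefore equal to within 1 on each chromosome, and only the tandem share and the gaps carry information. The tandem share was 46.3% (wild-type, 45.5 to 47.0), 44.5% (ΔSCC4) and 48.4% (ΔWAPL/ΔSCC4), so ΔWAPL was the highest. The convergent share was accordingly lower than in wild-type cells by 1.95 points, a difference of -1.95 (-2.82 to -1.08). With equal numbers of the strongest peaks, the tandem share was 47.8% in ΔWAPL (46.9 to 48.7) and 45.4% in wild-type cells (44.5 to 46.3). CTCF sites without SMC1 had tandem shares of 51.5% in ΔWAPL and 51.6% in wild-type cells. All motif sites, with or without SMC1, had 51.4% (50.9 to 51.9) and 50.8% (50.2 to 51.3). The tandem share of occupied sites was thus below that of all sites, by less in ΔWAPL than in wild-type cells. Runs of occupied sites that point the same way held 2.01 sites on average and at most 18 in ΔWAPL, against 1.86 and 11 in wild-type cells.

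Convergent neighbours stood farther apart than divergent ones. The median gap was 84.6 kb for convergent (81.2 to 87.8), 37.2 kb for divergent (35.4 to 38.9) and 50.5 kb for tandem pairs, which made a ratio of convergent to divergent of 2.28 (2.09 to 2.48). This ratio was chosen after the data had been seen. Where the gap was under 10 kb, 15.8% of occupied pairs were convergent and 28.9% divergent. From 100 to 500 kb the order was turned, with 33.4% convergent and 17.97% divergent, and above 500 kb it was 38.3% and 15.3% (861 pairs). ΔWAPL CTCF sites without SMC1 showed less of this, with 24.7% convergent and 24.6% divergent from 100 to 500 kb, and 27.8% (25.6 to 30.1) and 21.1% (19.1 to 23.2) above 500 kb. In wild-type cells, sites without SMC1 had 26.5% and 22.4% from 100 to 500 kb, and 30.6% and 19.5% above. When all motif sites were taken, whether they had SMC1 or not, the shares from 100 to 500 kb were 32.6% and 17.4%. The pattern was thus also present without selection by SMC1. The ratio of the gaps was 1.68 (wild-type), 1.39 (ΔSCC4) and 2.05 (ΔWAPL/ΔSCC4). With equal numbers of the strongest peaks, the ratios were 2.04 in ΔWAPL (1.81 to 2.31) and 1.53 in wild-type cells (1.36 to 1.69). SMC1 strength hardly differed by orientation. Among pairs 10 kb to 1000 kb apart, the weaker SMC1 peak of a pair had a median fold enrichment of 5.87 in convergent, 5.85 in divergent and 5.78 in tandem pairs.

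**Figure D3:**
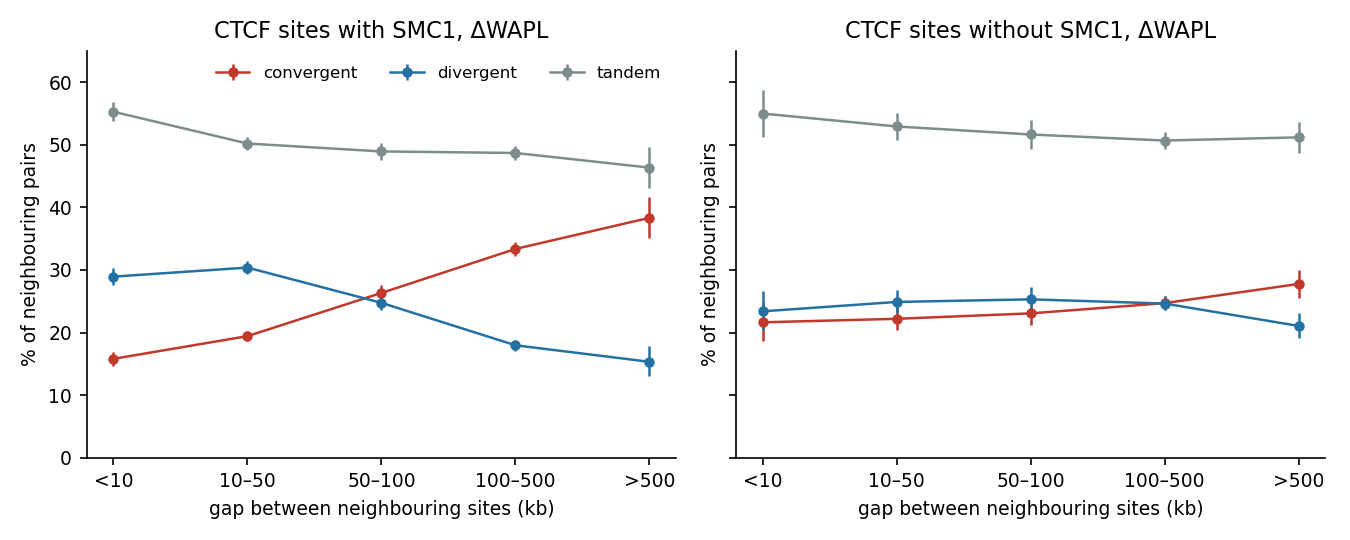
Share of neighbouring CTCF motif sites that were convergent, divergent or tandem, by the gap between them in kb, for ΔWAPL sites with SMC1 (left) and without (right), with bars for the 95% Wilson interval. With SMC1 the convergent share goes from 15.8% below 10 kb to 38.3% above 500 kb while the divergent share goes from 28.9% to 15.3%, and without SMC1 both stay between 21.1% and 27.8%.

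The sequences of a convergent, a divergent and a tandem pair, among those with the highest SMC1 −log10 q in the weaker member, show how orientation is read. Each is written along its own motif strand, with the motif match in capitals. The convergent pair lies on chromosome 17, 27.2 kb apart, at chr17:25680946-25681004 (plus strand) and chr17:25708185-25708243 (minus strand), and had SMC1 fold enrichments of 16.3 and 18.1. The divergent pair lies on chromosome 6, 13.2 kb apart, at chr6:29802765-29802823 (minus strand) and chr6:29815968-29816026 (plus strand), with 18.4 and 15.9. The tandem pair lies on chromosome 2, 14.2 kb apart, at chr2:9939954-9940012 and chr2:9954116-9954174 (both plus strand), with 13.7 and 16.4. None of these sites lies within a gene of the annotation.
Convergent pair, left: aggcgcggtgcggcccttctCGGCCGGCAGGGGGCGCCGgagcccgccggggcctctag
Convergent pair, right: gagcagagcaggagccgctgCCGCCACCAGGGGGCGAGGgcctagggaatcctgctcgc
Divergent pair, left: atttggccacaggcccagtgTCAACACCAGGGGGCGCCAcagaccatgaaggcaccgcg
Divergent pair, right: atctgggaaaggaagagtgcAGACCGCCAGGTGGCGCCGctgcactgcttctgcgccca
Tandem pair, left: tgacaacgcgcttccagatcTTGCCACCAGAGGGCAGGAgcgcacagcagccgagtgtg
Tandem pair, right: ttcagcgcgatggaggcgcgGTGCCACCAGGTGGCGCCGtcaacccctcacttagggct

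Orientation said little about whether a single motif site carried SMC1. Of ΔWAPL sites whose next motif site ahead, on their 3′ side, faced them, 66.9% had SMC1 (66.2 to 67.6), and of those whose next site pointed the same way 68.9% (68.2 to 69.5). Within quintiles of CTCF strength, the facing sites differed by -0.80 points on average, with 3 of 5 quintiles higher. In wild-type cells they were higher by 3.26 points and in ΔSCC4 cells by 5.74 points, in 5 of 5 quintiles each. The difference was 1.01 points in ΔWAPL/ΔSCC4 cells.

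SMC1 peaks without CTCF made up the remaining 6251 of the ΔWAPL list, and they lay at promoters. Of these, 83.8% had their summit within 1 kb of a start site, against 69.9% of the 1019 such peaks of wild-type cells. They were narrower and weaker than SMC1 at CTCF, with a median interval of 312 bp against 368 bp and a median fold enrichment of 4.43. Among the 3 strongest near a start site, 1 was 39 bp from a start of TOP3B, a topoisomerase gene, with fold enrichments of 15.2 (ΔWAPL) and 9.63 (wild-type), and 1 was 204 bp from a start of NCAM2, a neural cell adhesion gene, with 9.55 (ΔWAPL), 4.70 (wild-type), 4.56 (ΔSCC4) and 6.89 (ΔWAPL/ΔSCC4). Both were picked by their ΔWAPL value, so that its rank among the genotypes is not a result. Only 11.2% of these peaks had a CTCF summit within 1 kb, and 53.1% were over 10 kb from one. A motif match was found in 29.5% on the even-numbered chromosomes (27.8 to 31.2). The match score was set so that 5% of windows 1000 bp from wild-type CTCF summits reach it. How often promoter sequence reaches it without CTCF was not measured, so the 5% is no background rate for these peaks.

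Around start sites the 2 classes leaned to opposite sides. SMC1 without CTCF had its summit on the transcribed side of the nearest start in 58.6% of peaks (57.3 to 59.95, 3050 of 5203), with a median of 18 bp (15 to 22). SMC1 at CTCF had it there in 41.8% (40.5 to 43.0), with a median of -32 bp, upstream of the start. In wild-type cells SMC1 without CTCF was balanced at 48.4% (44.7 to 52.1, 703 peaks), and in ΔWAPL/ΔSCC4 cells 54.0% were on the transcribed side. The side depended on peak strength. In the first 4 quintiles by fold enrichment, 58.9% to 61.1% of SMC1 peaks without CTCF lay on the transcribed side, but in the strongest only 52.3% did (49.2 to 55.3). With SMC1 peaks of −log10 q of at least 10 only, an alternative added after the data had been seen, the share was 48.1% (44.1 to 52.1), and the lean was not seen. It was 46.5% with equal numbers of the strongest peaks.

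**Figure D4:**
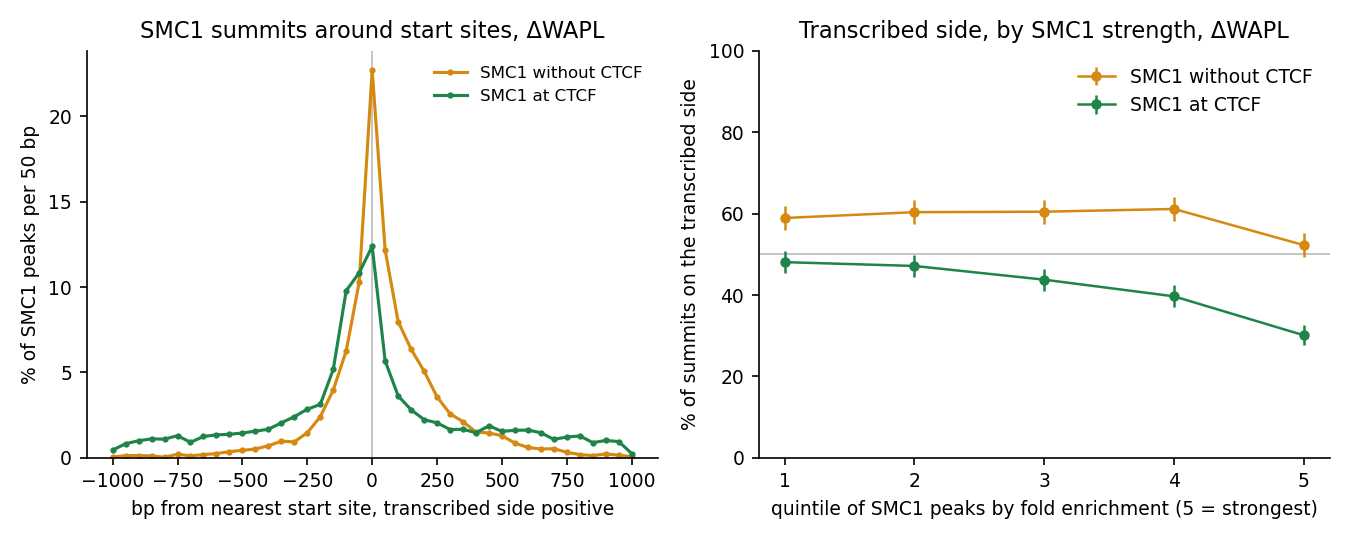
SMC1 summits of ΔWAPL cells around the nearest start site, in bp with the transcribed side positive, as a share of peaks per 50 bp (left), and the share on the transcribed side by quintile of SMC1 fold enrichment with 95% Wilson intervals (right). SMC1 without CTCF extends to the transcribed side and lies there in 58.9% to 61.1% of the first 4 quintiles, and SMC1 at CTCF leans upstream, most in the strongest quintile (30.1%).

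Counted by gene, more promoters had an SMC1 peak in ΔWAPL cells. Of 20098 protein-coding genes, 4654 (23.2%) had an SMC1 peak at CTCF no more than 1 kb from a start and 4163 (20.7%) had SMC1 without CTCF only. The wild-type numbers were 2841 (14.1%) and 650 (3.23%), in ΔSCC4 cells 2005 and 383, and in ΔWAPL/ΔSCC4 cells 3697 and 1212. Promoters with CTCF but no SMC1 numbered 914 in ΔWAPL, against 2949 in wild-type cells.

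Gene groups were then read in the same way. The groups were chosen by symbol, they are described by counts only, and the shares over all protein-coding genes stand beside them. Mitochondrial ribosomal protein genes had SMC1 without CTCF at 33 of 77 promoters (42.9%, 32.4 to 54.0), against 20.7% over all genes, with MRPS31 (fold enrichment 11.5) and MRPL21 (10.7) the first by −log10 q. Such peaks were at 8 of 77 in wild-type cells (10.4%, 5.36 to 19.2), against 3.23% over all genes. Cytosolic ribosomal protein genes had SMC1 at CTCF at 29 of 84 promoters (34.5%, 25.2 to 45.2), against 23.2% over all genes. They had SMC1 without CTCF at 22 of 84 (26.2%, 17.98 to 36.5), an interval that holds the 20.7% over all genes. RPL26, with 13.5, and RPS3A, with 12.5, had the highest values. In wild-type cells these classes held 12 and 4 of the 84 (14.3% and 4.76%), near the 14.1% and 3.23% over all genes. Of 64 replication-dependent histone genes, which encode the bulk histones of S phase, 15 had SMC1 without CTCF (23.4%, 14.7 to 35.1), near the 20.7% over all genes. SMC1 at CTCF was found at 4 of these 64 (6.25%), against 23.2% over all genes. ZNF genes were also close to all genes for SMC1 without CTCF, with 104 of 515 (20.2%). They had SMC1 at CTCF at 74 of 515 (14.4%), against 23.2% over all genes.

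Olfactory receptor genes had little SMC1, and clustered protocadherin genes had none without CTCF. Many alternative promoters of the clustered protocadherin genes are bound by CTCF in nerve cells. Here these genes had CTCF without SMC1 at 27 of 53 promoters in ΔWAPL cells (50.9%, 37.9 to 63.9), where all genes had 4.55%. The wild-type count was higher, with 35 of 53 (66.0%, 52.6 to 77.3), where all genes had 14.7%. SMC1 at CTCF was found at 10 of the 53 (18.9%, 10.6 to 31.4), an interval that holds the 23.2% over all genes. In wild-type cells it was found at 3 (5.66%), where all genes had 14.1%. SMC1 without CTCF was at 0 of 53 in ΔWAPL cells, which allows a share of up to 6.76% (Wilson), against 20.7% over all genes. The promoters within a cluster lie close together and are not independent. Of 399 olfactory receptor genes, which are silent outside the nose, 396 had neither protein (99.2%), against 51.6% over all genes. HOX genes, which pattern the body axis, had SMC1 at 12 of 39 promoters, 6 at CTCF (among them HOXB5 with 14.6 and HOXA6 with 10.6) and 6 without. Each class made up 15.4% (7.25 to 29.7), an interval that holds the shares over all genes, 23.2% and 20.7%.

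The genes of cohesin itself were also read. Of 17 genes of cohesin subunits and regulators, 8 had SMC1 at CTCF and 3 without CTCF in ΔWAPL cells, and 8 and 0 in wild-type cells. The ΔWAPL shares were 47.1% (26.2 to 69.0) at CTCF, against 23.2% over all genes, and 17.6% (6.19 to 41.0) without CTCF, near the 20.7% over all genes. In wild-type cells all genes had 14.1% and 3.23%. MAU2, which encodes SCC4, had an SMC1 fold enrichment of 11.3 in ΔWAPL and 5.85 in wild-type cells. ESCO1, a cohesin acetyltransferase gene, had 10.2 and 5.45, and STAG1, a subunit gene, 9.86 and 7.68. NIPBL, which encodes SCC2, had CTCF only in wild-type but SMC1 without CTCF in ΔWAPL cells, at a low fold enrichment of 3.63. HDAC8, the deacetylase gene of SMC3, had no SMC1 peak in wild-type but 1 of 5.74 in ΔWAPL cells. RAD21, the kleisin subunit gene, had SMC1 at CTCF with 3.53 in wild-type and without CTCF with 7.18 in ΔWAPL cells. No SMC1 or CTCF peak lay at the promoters of WAPL, SMC1A, SMC3, ESCO2, CDCA5 or SGO1 in any genotype.

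**Figure D5:**
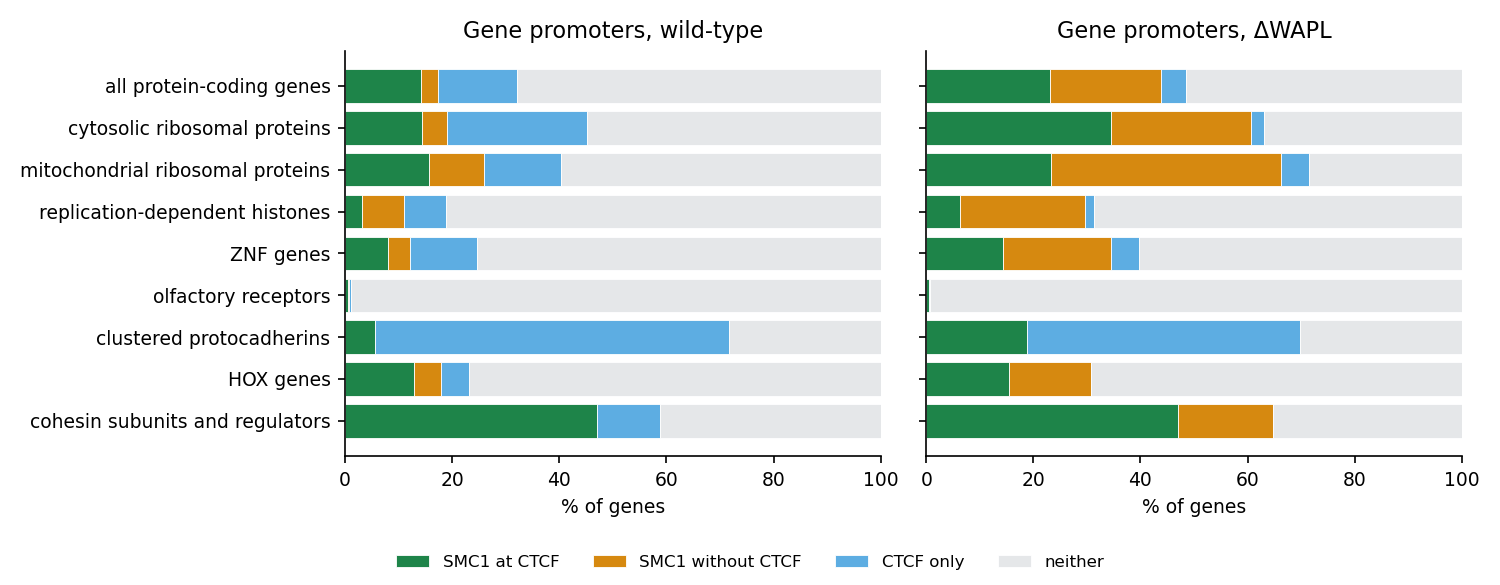
Share of the genes of each group with SMC1 at CTCF, SMC1 without CTCF, CTCF only or neither no more than 1 kb from a start site, for wild-type (left) and ΔWAPL cells (right), 1 library of each antibody in each. SMC1 without CTCF goes from 3.23% to 20.7% of all protein-coding genes. The clustered protocadherin genes have CTCF without SMC1 at 66.0% of promoters in wild-type and 50.9% in ΔWAPL cells.

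SMC1 without CTCF was also counted in the gaps between neighbouring occupied sites, most of which held none. In ΔWAPL cells, 22.9% of convergent, 17.8% of divergent and 16.5% of tandem gaps held at least 1, against 6.85%, 4.21% and 4.95% in wild-type cells. Per Mb of gap, the density was 2.05 in convergent, 2.62 in divergent and 1.96 in tandem gaps of ΔWAPL cells, so the divergent gaps were densest although the convergent ones held a peak most often.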

How the data were processed

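Single-end reads of 65 bp were mapped by the authors to hg19 with Bowtie2 at default settings, and peaks were called in each library with MACS2 (version 2.1.1) with IgG as control. The calling threshold is not given in the sources used here. The publication states other numbers of SMC1 peaks than the deposited lists hold, so these lists are not the peak sets counted there. The deposited lists give an interval and a summit offset for each peak, the fold enrichment (a ratio of summit pileup to local background after adding 1 read to both) and the −log10 of the p-value and of the q-value as the authors' caller wrote them. These values were used to rank and filter peaks and to recover the depth, by solving fold enrichment and −log10 p for the whole-number pileup. Fold enrichments were also summarised, correlated and set side by side between lists as the caller wrote them, without further normalisation.

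Samples were grouped by title. Peaks were paired at an overlap of at least 1 bp, each SMC1 peak with the CTCF peak of nearest summit. A 19 bp motif was learned on odd-numbered chromosomes from 1000 wild-type CTCF peaks of highest rank, and a match was the best score within 50 bp of the summit that 5% of windows 1000 bp away reach. Start sites and genes came from GENCODE version 44 on GRCh37. Quintiles were taken by fold enrichment. Shares have Wilson, differences Newcombe, ratios of shares Katz, and medians order-statistic intervals, all at 95%, and the interval of a ratio of medians joins the ends of both. With 1 library per group no test was made. The members, lists and rules were chosen with earlier results of these data known. Named sites were those of highest −log10 q of their class, on chromosomes 1 to 22 and X without chromosome 8 and clear of IgG peaks. This rank goes with the number of reads as well as with fold enrichment, and copy number was not corrected for. The LINGO1 site had an SMC1 −log10 q of 187 at a fold enrichment of 16.8. The site beside LTF had 168 at 20.9. Gene groups were taken by symbol. In all, 15 alternative settings were run. Python 3.11.15, NumPy 2.4.6, pandas 2.3.3, SciPy 1.17.1 and pysam 0.24.0 were used, and the steps were tested on simulated data.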

Additional observations from a re-analysis of the deposited data

Results flagged for a closer look

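Losing SCC4 moved 2 of 9 quantities in opposite directions in the 2 backgrounds. The ratio of SMC1 occupancy between the strongest and weakest quintile of CTCF peaks changed by -1.15 from wild-type to ΔSCC4 and by 5.44 from ΔWAPL to ΔWAPL/ΔSCC4 cells. The share of SMC1 without CTCF on the transcribed side of start sites changed by 1.28 percentage points from wild-type to ΔSCC4 and by -4.61 from ΔWAPL to ΔWAPL/ΔSCC4 cells. Between wild-type and ΔSCC4 cells the intervals overlapped, for the ratio (13.4 to 15.9 and 12.2 to 14.8) and for the share (44.7 to 52.1 and 44.9 to 54.4). The direction of either change from wild-type cells is thus not settled beyond counting error. Each rests on 1 library per genotype, and neither difference was tested. Losing WAPL moved all 9 quantities of the deposited lists the same way in wild-type and ΔSCC4 cells, but with equal numbers of the strongest peaks 3 of the 9 moved in opposite directions. These were the share of SMC1 at CTCF (-0.53 and 3.96 points), the occupancy ratio (-5.75 and 1.56) and the transcribed-side share (11.1 and -5.07 points). For the occupancy ratio and the transcribed-side share, the intervals of ΔSCC4 and ΔWAPL/ΔSCC4 cells overlapped. With equal numbers, losing SCC4 moved 4 of the 9 in opposite directions, among them both given above.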

How the results depend on the processing

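Of 97 values of 11 results under 15 settings, 69 stayed within the 95% interval of the reported value. Requiring a −log10 q of at least 10 gave 94.3% of SMC1 peaks at CTCF, 48.7% of CTCF peaks with SMC1, a median distance of 24 bp, a 3′ share of 63.3%, an occupancy ratio of 4.85, a convergent share of 25.9% and a transcribed-side share of 48.8%. Equal numbers of the strongest peaks gave 97.6%, 33.4%, 22 bp, 64.1%, 10.1, 26.1% and 46.5% for the same quantities, a difference from wild-type of 5.18 points in the 3′ share and a gap ratio of 2.04. The transcribed-side share thus fell below 50% under both, and to 48.1% with the SMC1 list alone restricted. An overlap of 50% of either peak gave 81.0% of SMC1 at CTCF and an occupancy ratio of 4.84. Summits within 250 bp gave 81.0%, 60.04% of CTCF peaks with SMC1 and a ratio of 4.96. The ratio was 4.94 without peaks at IgG and 5.44 with −log10 q as the strength. From the motif centre, the 3′ share was 53.9% and the median 4 bp. Pairs 10 kb to 1 Mb apart gave a convergent share of 26.6% and a gap ratio of 1.85. The gap ratio and all its settings were chosen after the data had been seen. No paired analysis was possible because each group held 1 library, and no replicate could be left out. The lists hold called peaks only, so a site without a peak may hold protein below the depth of its library.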
